A study of Mus musculus with 50 samples.

Results

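Thyroids of mice given antibodies against the Notch ligands Jag1 and Jag2 were compared with thyroids of mice given an isotype control antibody, 7 days after dosing, across all genes measured by RNA sequencing. The libraries were chosen by their titles: 5 of aJ1aJ2 thyroid and 5 of RW thyroid at 7 days, 10 of the 50 libraries of the series. RW is an antibody to ragweed and has no mouse target, and was dosed once into the peritoneum at 40 mg/kg. The aJ1aJ2 pair was given once at 20 mg/kg of each antibody. All mice were male C57BL/6 animals of 10 to 14 weeks per the protocol, or 10 to 12 weeks per the study description, and no gene was deleted in either group. The study description also speaks of thyroid hormone injections, and no label says whether any of these 10 mice had them. The labels give neither the hour of day at which thyroids were taken nor a batch of extraction, and they do not say that each library is 1 animal. The p-values below measure the spread between these libraries. A second set of 5 aJ1aJ2 libraries at 7 days has no RW library beside it here and was not used.

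Jag1 and Jag2 sit on the surface of a cell and bind Notch receptors on its neighbour. The receptor is then cut, and its inner part enters the nucleus and, with the DNA-binding protein RBPJ, switches on genes such as those of the Hes and Hey families. In blood vessels, Jag1 on endothelial cells signals to Notch3 on pericytes and smooth muscle cells, the mural cells that wrap the vessel, and the thyroid follicle is surrounded by a dense capillary net. A thyroid library also holds RNA of the parathyroid glands, C cells, fat and neck muscle that lie in or on the gland.

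The 10 libraries held 19590732 to 29599921 counts in RW and 17847545 to 28829432 in aJ1aJ2. Tg, the thyroglobulin gene that defines the follicular cell, took 22.9 to 36.5% of counts in RW and 27.4 to 35.7% in 4 aJ1aJ2 libraries, but 8.87% in aJ1aJ2 replicate 2. That library drew 11.6% of its counts from the skeletal muscle list and 7% from mitochondrially encoded genes, against at most 2.83% and 2.95% in the other 9 libraries. In aJ1aJ2 replicate 1, Pth, the parathyroid hormone gene, had 45 counts, against 71806 to 334822 in the others. Thymus genes marked 4 RW libraries: Psmb11, a proteasome subunit of thymic epithelium, had 255, 291, 168, 0 and 154 counts in RW replicates 1 to 5 and 0 in every aJ1aJ2 library. Rag1, which cuts antigen receptor genes in immature lymphocytes, had 1248, 4033 and 171 counts in RW replicates 1, 2 and 3, and at most 3 in the other 7 libraries. The thymus list took 0.000534 to 0.0417% of counts in RW and 0.000303 to 0.000364% in aJ1aJ2, with no overlap (two-sided exact permutation test, p = 0.00794, the smallest that 5 against 5 can give; 0.0714 adjusted over the 9 composition shares). None of the 9 shares passed the threshold of 0.05. Defining markers of airway secretory cells, cartilage and squamous epithelium were close to 0: Scgb1a1 had at most 16 counts, Col2a1 at most 3 and Krt4 at most 8. In bulk tissue, fewer cells of a type and less RNA per cell cannot be told apart.

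**Figure D1:**
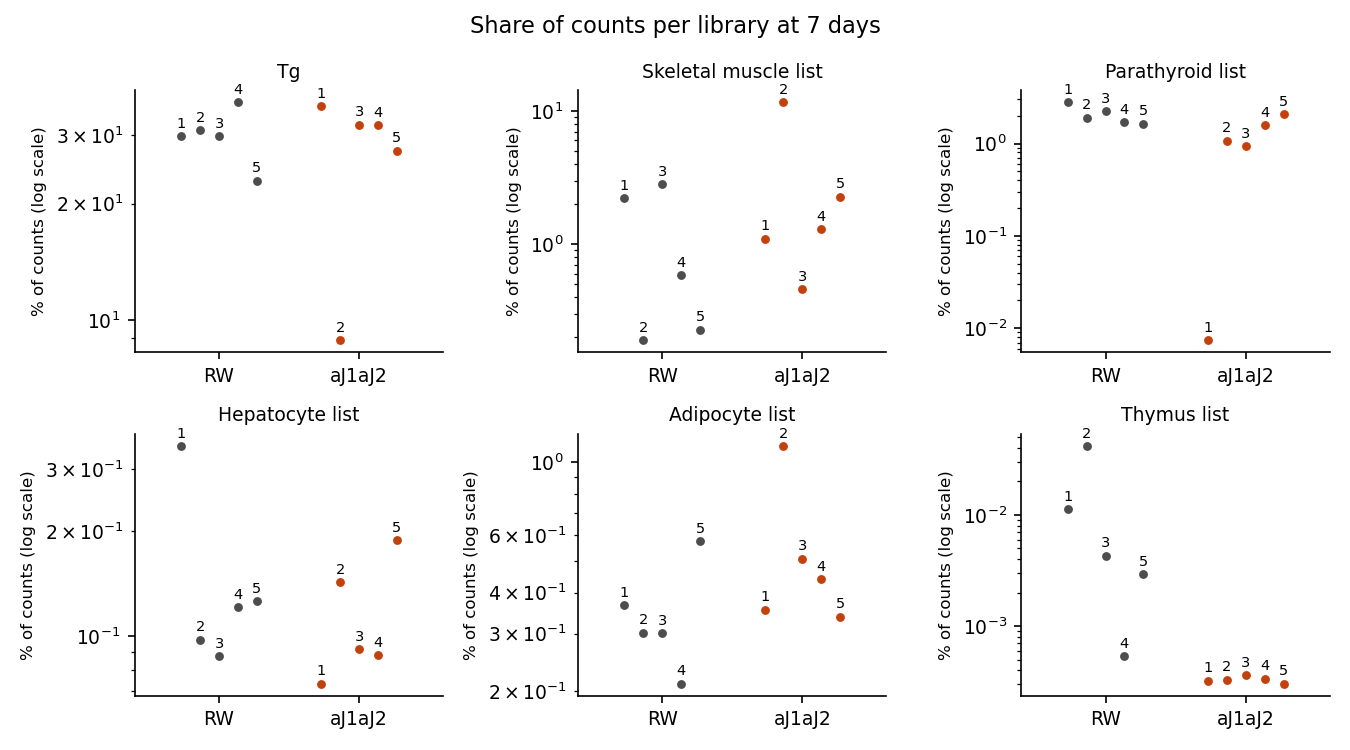
Share of all counts, in percent on a log scale, taken by Tg and by the marker lists of 5 other tissues. Each point is 1 library, numbered by its replicate, with RW in grey and aJ1aJ2 in orange. aJ1aJ2 replicate 2 is lowest for Tg (8.87%) and highest for muscle (11.6%), aJ1aJ2 replicate 1 is lowest for parathyroid (0.00741%), and for the thymus list all 5 RW points lie above all 5 aJ1aJ2 points.

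Of 16954 genes with enough counts to test, edgeR called 0 at an adjusted p below 0.05 (percent called 0), with a smallest adjusted p of 0.0655. The unadjusted p was below 0.05 for 1968 genes (11.6%), 877 higher in aJ1aJ2 (5.17%) and 1091 lower (6.44%). DESeq2 called 417 of the 15912 genes to which it gave an adjusted p (2.62%), 166 higher (1.04%) and 251 lower (1.58%), and limma on FPKM values called 0. For 616 genes (3.63%) the 5 aJ1aJ2 values lay wholly above or wholly below the 5 RW values: 273 higher (1.61%) and 343 lower (2.02%). Reads of genes whose exons overlap another gene are uncertain, since the counting is not stated to use strand. This is said where the CPM of such a gene are given library by library, and not for every other gene. Because edgeR called no gene, the genes below are described by their values and by whether the groups overlapped. The 12 higher and 12 lower genes of smallest p among those without overlap had adjusted p from 0.0655 to 0.082. DESeq2 called all 24, on the same counts by which they were chosen. The higher genes were Fmo2, Ciart, Spsb1, Tef, Ifi207, Fam107a, Slc25a33, Map3k6, Ms4a6d, Apod, Adam11 and Mrc1. The lower genes were Tbata, Rgs5, Sgpl1, Enpep, Mgat5b, Plekhs1, Emid1, Fscn1, Prss16, Dcdc2a, Ctsw and Tekt1. Of these, Tbata, Mgat5b, Prss16 and Ctsw, with 2 to 13 counts per aJ1aJ2 library, passed the count filter only through RW. That fixed their direction in advance. With the 3 RW libraries that held over 100 Rag1 counts left out, edgeR called 0 genes, with 2 RW libraries remaining. The 24 had adjusted p of 0.591 to 0.599 there. Their direction could hardly change, since they were chosen for groups that do not overlap. With aJ1aJ2 replicates 1 and 2 left out it called 14. Single libraries moved the count too: it was 20 without RW replicate 4, 12 without aJ1aJ2 replicate 2, 9 without aJ1aJ2 replicate 1 and 1 without RW replicate 5.

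**Figure D2:**
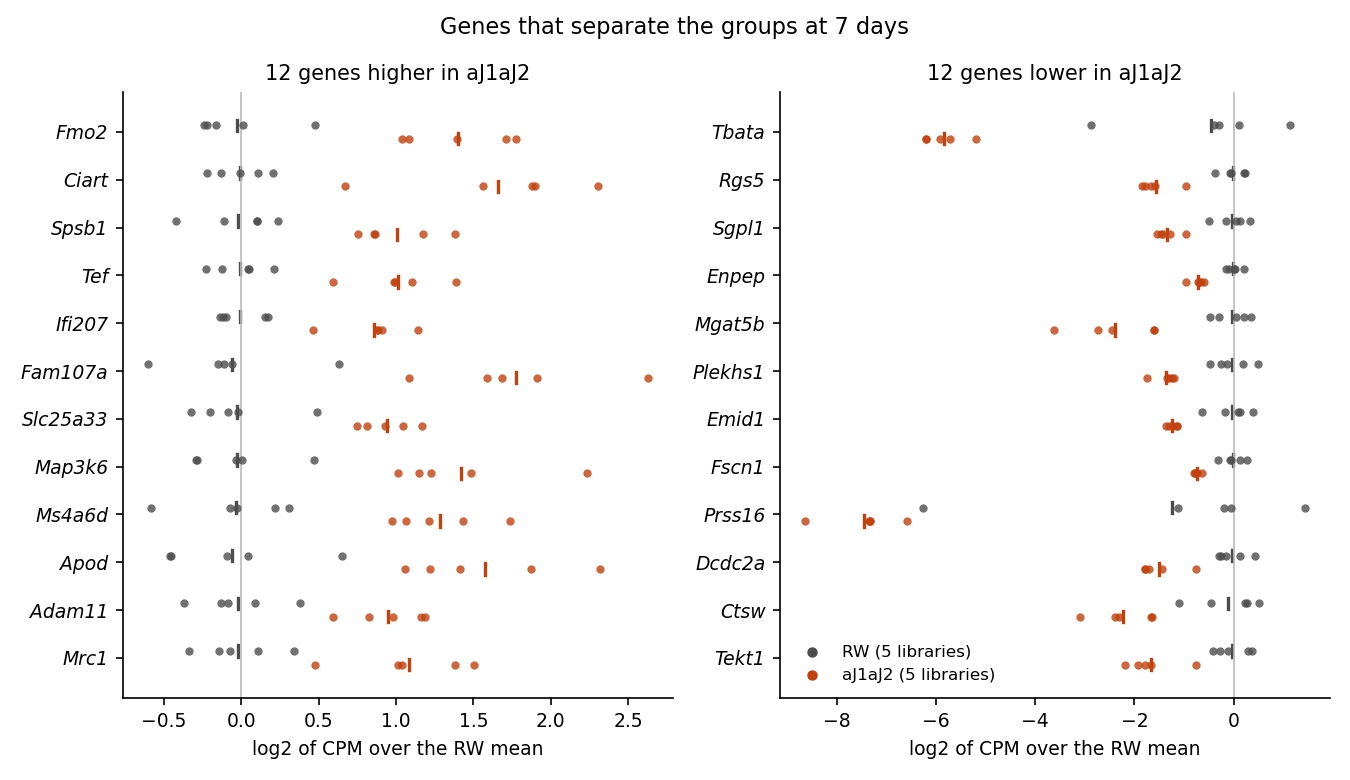
Levels of the 12 higher and the 12 lower genes in each library, as log2 of CPM (counts scaled to a common library size) over the mean of the RW libraries. Points are libraries and short vertical bars are group means of these log2 values. Fmo2, first in the left panel, ran from 24.3 to 40 CPM in RW and from 59 to 98.2 in aJ1aJ2, and for all 24 genes the colours do not overlap.

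Ciart and Tef, among the 12 higher genes, belong to the circadian clock. The clock is a daily feedback loop present in most cells: Arntl with Clock or Npas2 binds E-boxes (CACGTG) in DNA and drives the Per, Cry and Ciart repressors and the output factors Dbp, Tef and Hlf. The repressors then shut the drivers off. All 19 genes of the clock list were tested, with a median log2 fold change of 0.71 against 0.01 over all genes. Of these, 7 were higher without overlap (background 1.61%): Ciart, Tef, Per2, Cry2, Per1, Per3 and Hlf. At an unadjusted p below 0.05, 13 were higher (background 5.17%) and 2 lower (background 6.44%), and edgeR called 0. The 3 genes below 0 were Arntl, Npas2 and Clock, which are the drivers of the loop. Without aJ1aJ2 replicate 2 the median was 0.43, 6 genes were higher without overlap and edgeR called 1. In other mice with their own RW controls, the median was −0.26 at 15 hours and 0.18 at 5 days. At 5 days Arntl had 49.1 to 90.6 CPM in RW and 12.4 to 39.9 in aJ1aJ2, and Dbp 0.942 to 3.08 and 6.6 to 26.4, both without overlap. The 5-day fit was repeated without 2 libraries low in thyroid RNA, described with the other times. There edgeR called Tef (1.71, adjusted p = 0.00111), Cry2 (1.03, 0.00161), Per3 (1.55, 0.00409) and Hlf (1.05, 0.0132) higher. It also called Dbp (3.09), Nr1d1 (1.81) and Nr1d2 (1.11) higher, and Cry1 lower (−0.96, 0.0416). Ciart (0.84, 0.189), Per2 (0.53, 0.468) and Per1 (0.15, 0.818) were not called. The hour of day of collection is not given, and its part was not tested.

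To show the element on which the loop acts, windows from 250 bases before to 50 bases after the start are printed for Ciart, Per1 and Tef, 3 of the 7 higher genes, chosen because they hold it, from RefSeq (GRCm38.p6), each 5′ to 3′ along its gene, with E-boxes (CACGTG, which reads the same on both strands) in capitals. Promoters were found for 16 of the 19 clock genes, and 5 of the 16 held an E-box in at least 1 window: Ciart, Per1, Tef, Cry1 and Bhlhe41. The windows of Per3, Cry2 and Hlf, also among the 7, held 0, and Per2 was not matched. Among their 21 windows 6 held one (28.6%), against 2349 of 32851 windows of all genes (7.15%).
Ciart (chr3:95882179-95882478, minus strand): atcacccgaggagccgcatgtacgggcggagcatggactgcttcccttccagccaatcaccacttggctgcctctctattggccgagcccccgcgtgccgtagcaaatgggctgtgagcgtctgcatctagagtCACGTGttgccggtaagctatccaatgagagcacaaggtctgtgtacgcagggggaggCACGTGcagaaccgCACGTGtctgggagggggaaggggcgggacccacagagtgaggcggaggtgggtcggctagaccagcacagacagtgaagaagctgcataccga
Per1 (chr11:69098699-69098998, plus strand, 1 of its windows): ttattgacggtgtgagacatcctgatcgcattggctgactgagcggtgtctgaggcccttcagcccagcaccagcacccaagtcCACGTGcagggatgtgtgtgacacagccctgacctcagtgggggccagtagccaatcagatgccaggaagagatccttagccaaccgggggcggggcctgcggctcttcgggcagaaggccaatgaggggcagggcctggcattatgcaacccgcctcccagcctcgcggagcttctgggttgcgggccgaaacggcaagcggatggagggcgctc
Tef (chr15:81811164-81811463, plus strand, 1 of its windows): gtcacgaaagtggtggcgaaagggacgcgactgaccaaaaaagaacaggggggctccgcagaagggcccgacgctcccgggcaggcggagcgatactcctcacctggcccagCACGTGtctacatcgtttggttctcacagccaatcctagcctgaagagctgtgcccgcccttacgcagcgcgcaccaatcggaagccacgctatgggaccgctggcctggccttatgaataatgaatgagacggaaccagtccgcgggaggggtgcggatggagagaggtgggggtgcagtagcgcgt
The Ciart window holds 3 E-boxes and the printed Per1 and Tef windows 1 each. Per1 has another window with 0, and Tef another with 1. A match describes letters, not binding.

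Ciart (ENSMUSG00000038550), a repressor of Arntl and Clock, had 2.25, 2.07, 2.4, 1.79 and 1.9 CPM in RW replicates 1 to 5 and 3.31, 10.3, 6.14, 7.66 and 7.75 in aJ1aJ2 replicates 1 to 5. The RW libraries lay close together, and the lowest aJ1aJ2 library, replicate 1, still stood above them. The log2 fold change was 1.75 (SE 0.26, edgeR adjusted p = 0.07). Tef (ENSMUSG00000022389), an output factor that binds D-boxes, had 167, 138, 187, 148 and 166 CPM in RW and 243, 421, 319, 347 and 321 in aJ1aJ2, which is a log2 fold change of 1.04 (SE 0.16, adjusted p = 0.07). Replicate 2 was again the highest aJ1aJ2 library. Tef overlaps Gm17597 on the other strand.

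Per2, a core repressor, had 49, 42.4, 59.6, 38.9 and 28.8 CPM in RW and 83.6, 71, 122, 144 and 99.9 in aJ1aJ2 (log2 fold change 1.25, SE 0.23, adjusted p = 0.0997). Here replicate 4, not replicate 2, was the highest library. Per1 had 84, 91.5, 134, 111 and 77.3 CPM in RW and 134, 201, 189, 227 and 199 in aJ1aJ2 (0.93, SE 0.19, adjusted p = 0.117), so that its groups touched at a rounded 134. Per3 had 43.5, 48.8, 62.1, 50.8 and 49.8 CPM in RW and 67.7, 78.7, 123, 131 and 91.3 in aJ1aJ2 (0.95, SE 0.19, adjusted p = 0.117). All 3 Per genes were lowest in replicate 1 or 2 of the aJ1aJ2 group. Cry2, the partner of the Per proteins, averaged 49.6 ± 4.32 CPM in RW and 83.9 ± 18.1 in aJ1aJ2 (SD, n = 5), and Hlf 27.2 ± 3.82 and 43.8 ± 7.01. Cry2 overlaps D930015M05Rik on the other strand, and Arntl Gm45355.

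The drivers lay on the other side of RW, with overlap. Arntl had 15.6, 16, 10.3, 11.6 and 8.47 CPM in RW and 9.71, 14.5, 5.22, 3.61 and 4.86 in aJ1aJ2 (log2 fold change −0.72, SE 0.36, adjusted p = 0.465). Its 3 lowest libraries were aJ1aJ2 replicates 3, 4 and 5, while replicates 1 and 2 stood among the RW values. Npas2 was at −0.57 (adjusted p = 0.374) and Clock at −0.39 (adjusted p = 0.414). The nuclear receptors Nr1d1 and Nr1d2, which repress Arntl, differed less, with log2 fold changes of 0.34 and 0.32 (adjusted p = 0.428 and 0.357). Nr1d1 shares exon sequence with Thra on the other strand, and Dbp (0.72, adjusted p = 0.226) with Sphk2. Arntl, Npas2, Clock and the other clock genes outside the 7 without overlap were named after their values were seen, as were Per3 and Hlf.

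**Figure D3:**
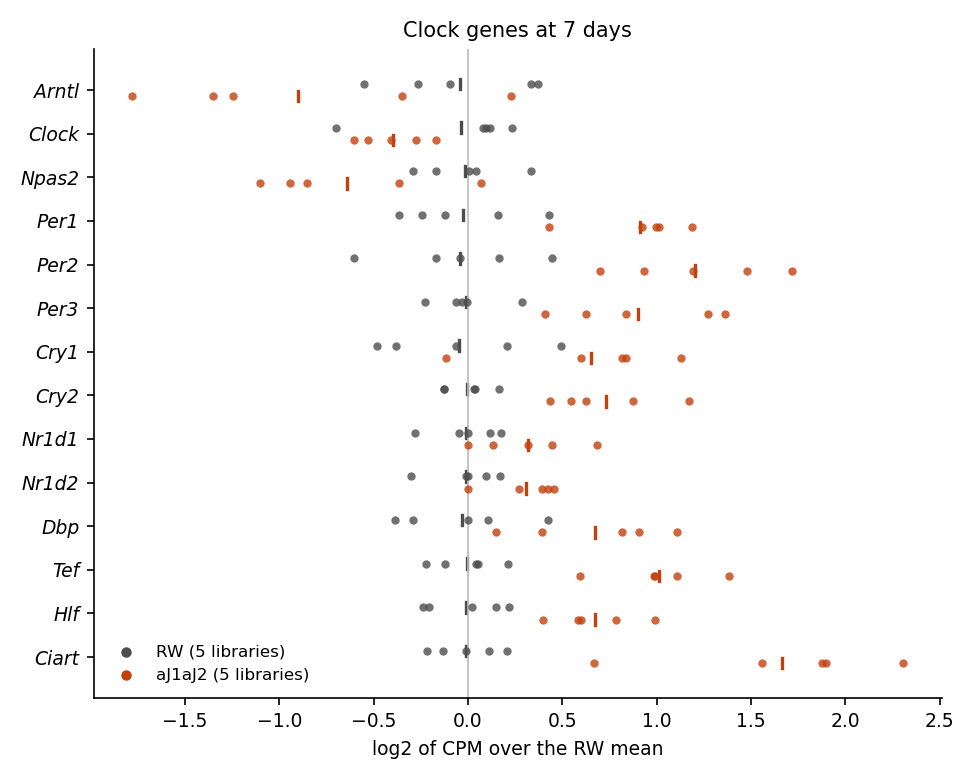
Clock genes in each library, as log2 of CPM over the RW mean, with short bars for group means. Per1, Per2, Per3, Cry2, Tef, Hlf and Ciart in aJ1aJ2 (orange) lie to the right of every RW library (grey), while Arntl, Clock and Npas2 lie mostly to the left and overlap RW.

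Genes that respond to glucocorticoids, the adrenal steroids, were higher for part of their list. Of 13 tested genes, 3 were higher without overlap (Per1, Klf9 and Fkbp5, background 1.61%) and 6 had an unadjusted p below 0.05, all higher (background 5.17%). The list's median log2 fold change was 0.70, and 0.20 without aJ1aJ2 replicate 2. Fkbp5, a chaperone of the steroid receptor, had 71.1, 36.9, 33.6, 27.2 and 23 CPM in RW and 71.6, 211, 78.9, 96 and 108 in aJ1aJ2 (log2 fold change 1.56, SE 0.37, adjusted p = 0.165). Its groups came close at RW replicate 1 and aJ1aJ2 replicate 1, and replicate 2 was far above the other aJ1aJ2 libraries. Klf9, a transcription factor induced by glucocorticoids and thyroid hormone, had 139, 123, 135, 122 and 84.3 CPM in RW and 184, 328, 214, 204 and 197 in aJ1aJ2 (0.91, SE 0.19, adjusted p = 0.131). Tsc22d3, which mediates anti-inflammatory effects of glucocorticoids, was at 1.12 (SE 0.27, adjusted p = 0.166) with 1 aJ1aJ2 library, replicate 1, inside the RW range. Mt1 and Mt2, the metallothioneins of the same list, were at −0.57 and −0.58.

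Notch readouts were lower in aJ1aJ2: 7 of 7 tested genes had a log2 fold change below 0, with a median of −0.63. Hey1, Heyl and Notch3 were lower without overlap (3 of 7, background 2.02%), and 5 of 7 had an unadjusted p below 0.05 (background 6.44% lower). Hey1, a repressor induced by Notch in arterial endothelium, had 11.8, 17.5, 10.7, 9.79 and 13.4 CPM in RW and 8.57, 6.73, 7.33, 7.73 and 8.02 in aJ1aJ2 (log2 fold change −0.72, SE 0.16, adjusted p = 0.154). The aJ1aJ2 libraries lay close together, and the RW libraries spread more widely. Heyl, its relative in mural cells, had 29.3, 36.2, 33.8, 37.7 and 41 CPM in RW and 27.8, 12.8, 25.3, 22.3 and 19.4 in aJ1aJ2 (−0.73, SE 0.19, adjusted p = 0.186). Notch3, the mural cell receptor, had 49.3, 45.4, 52, 51.4 and 38.2 CPM in RW and 32.9, 21.1, 34.6, 33.6 and 30.1 in aJ1aJ2 (−0.63, SE 0.15, adjusted p = 0.161), and overlaps Gm17276 on the other strand. For both, replicate 2 was the lowest library. Of the rest, Dtx1 was at −0.75 (adjusted p = 0.397), Nrarp at −0.50 (0.411), Hes1 at −0.40 (0.535) and Hey2 at −0.22 (0.665), each with overlap. Without aJ1aJ2 replicate 2 the list's median was −0.59. Again 3 genes were without overlap, but leaving out a library can hardly make separated groups overlap. In the RefSeq windows of the 5 readout genes matched, the RBPJ core TGGGAA (either strand) was present in 2, Hes5 and Hey2, against 25.6% of all windows. Hes5 was not among the genes tested, and Hey2 overlapped between the groups. Hey1, Heyl and Notch3, which separated, either held no match or had no window.

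Mural cell genes split into lower ones and others. Rgs5 (ENSMUSG00000026678), a regulator of G protein signals that marks pericytes, had the second smallest p of all genes tested. It had 214, 170, 255, 209 and 259 CPM in RW and 69.7, 114, 63.8, 61.2 and 74.2 in aJ1aJ2, which is a log2 fold change of −1.53 (SE 0.19, edgeR adjusted p = 0.0655). The highest aJ1aJ2 library was replicate 2, and without it edgeR called Rgs5 (−1.72, adjusted p = 0.00142). Ndufa4l2, a pericyte gene related to respiratory chain subunits, had 4.37, 4.19, 4.9, 4.99 and 10.9 CPM in RW and 1.19, 2.07, 1.79, 1.6 and 2.29 in aJ1aJ2 (−1.72, SE 0.30, adjusted p = 0.0852), and shares exon sequence with Shmt2 on the other strand. Cox4i2, an alternative subunit of cytochrome oxidase, averaged 1.74 ± 0.951 CPM in RW and 0.51 ± 0.235 in aJ1aJ2 (−1.78, SE 0.41, adjusted p = 0.161). With Notch3 and Heyl these made 5 of 19 mural genes lower without overlap, against a background of 2.02%, while 0 were higher. Of these 5, Cox4i2, with 4 to 14 counts per aJ1aJ2 library, passed the count filter only through RW. Other genes of the same cells did not separate. Pdgfrb, the growth factor receptor that defines mural cells, had 39.3, 33.7, 44.4, 45.8 and 46.2 CPM in RW and 47.1, 38.9, 42.6, 39.5 and 36.7 in aJ1aJ2 (−0.03, SE 0.11, adjusted p = 0.917). The contractile genes Acta2 and Myh11 were at 0.87 (SE 0.51) and 0.33 (SE 0.25), both highest in aJ1aJ2 replicate 3, with 220 and 156 CPM. The median of the mural list was 0.08. Pdgfrb, Acta2 and Myh11 were named after their values were seen.

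**Figure D4:**
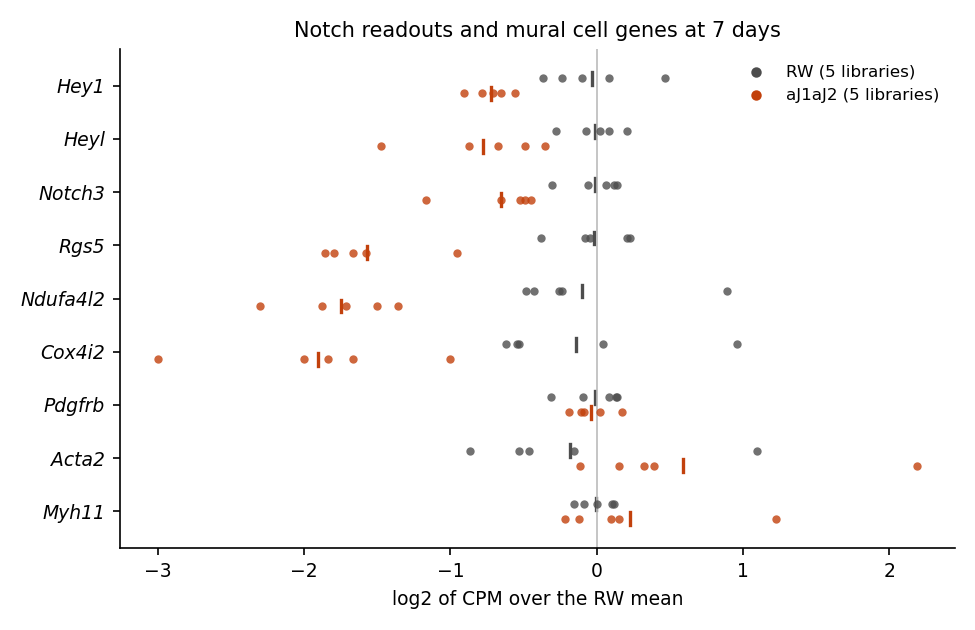
Notch readouts and mural cell genes in each library, as log2 of CPM over the RW mean, with short bars for group means. Hey1, Heyl, Notch3, Rgs5, Ndufa4l2 and Cox4i2 lie below every RW library in aJ1aJ2, whereas Pdgfrb, Acta2 and Myh11 overlap.

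The receptors and ligands themselves differed little. Of 8 tested, 1 was higher without overlap (background 1.61%) and 0 lower (background 2.02%). That 1 was Notch4, an endothelial receptor: 31.1, 29.9, 34.6, 34.4 and 29.4 CPM in RW and 38.8, 36.8, 39.5, 35.8 and 36.3 in aJ1aJ2 (log2 fold change 0.23, SE 0.09, adjusted p = 0.341). The targeted ligands were at −0.09 for Jag1 (SE 0.12, adjusted p = 0.744) and −0.03 for Jag2 (SE 0.09, adjusted p = 0.919), and an antibody to a protein need not alter its RNA. The Delta ligands Dll1 and Dll4, which also activate Notch receptors, were at −0.38 and −0.23, and Dll3, which does not activate them on neighbouring cells, was at −0.17. Notch1 was at −0.17 and Notch2 at 0.06, both lowest among RW in replicate 5. Of 26 genes for receptor cutting and the nuclear complex, 1 was higher without overlap (background 1.61%) and 1 lower (background 2.02%), with a median of 0.01. Snw1, a co-activator, was the higher (0.32, SE 0.10, adjusted p = 0.249). Adam17, a protease that cuts membrane proteins, was the lower (−0.20, SE 0.08, adjusted p = 0.398). Snw1 shares exon sequence with Slirp and Adam17 with Iah1, both on the other strand.

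Endothelial genes of sprouting tips and arteries had a median of −0.51, while the general endothelial list was at 0.08. Of 16 tip and arterial genes, 8 had an unadjusted p below 0.05 and a lower value (background 6.44%) and 1 (Sox17) a higher one (background 5.17%). Hey1 was the 1 of 16 without overlap, near the background of 2.02%. Aplnr, the apelin receptor of sprouting vessels and veins, had 9.11, 9.83, 16.1, 19.5 and 21.1 CPM in RW and 12.1, 5.4, 9.07, 7.35 and 6.39 in aJ1aJ2 (log2 fold change −0.91, SE 0.29, adjusted p = 0.26). Its ligand Apln was at −0.59 (SE 0.25, adjusted p = 0.399) and the netrin receptor Unc5b at −0.49 (SE 0.15, adjusted p = 0.242). Vegfc, a growth factor for lymphatic vessels, was at −0.53 (adjusted p = 0.341) and the tip cell gene Esm1 at −0.68 (adjusted p = 0.455), each with overlap. Aplnr, Apln, Unc5b, Vegfc and Esm1 were named after their values were seen.

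Among the other higher genes, Fmo2 (ENSMUSG00000040170), a flavin monooxygenase that oxidises drugs, had the smallest p. It had 40, 24.6, 24.3, 25.6 and 28.9 CPM in RW and 60.7, 94.1, 98.2, 75.3 and 59 in aJ1aJ2, a log2 fold change of 1.43 (SE 0.19, adjusted p = 0.07). Apod, a lipid-binding protein of stromal cells, had 27.5, 19.4, 25, 19.5 and 41.9 CPM in RW and 62.1, 133, 97.5, 71 and 55.6 in aJ1aJ2 (1.65, SE 0.28, adjusted p = 0.082). In both genes RW replicate 1 or 5 was the highest control, below the lowest aJ1aJ2 library. Fam107a, an actin-associated protein, was at 1.86 (SE 0.30), Map3k6, a stress kinase, at 1.49 (SE 0.25), and Spsb1, an adaptor for protein degradation, at 1.03 (SE 0.16), each with adjusted p = 0.07. Slc25a33, a mitochondrial carrier of pyrimidine nucleotides, had 19.1, 17.6, 20, 16.2 and 28.4 CPM in RW and 34.1, 35.6, 41.9, 38.6 and 45.5 in aJ1aJ2 (0.95, SE 0.16, adjusted p = 0.07). Here aJ1aJ2 replicate 2 did not stand apart. Ifi207, a member of an interferon-inducible family with close copies, was at 0.87 (SE 0.14), and Adam11, a protease-like membrane protein without known enzyme activity, at 0.96 (SE 0.17). Spsb1 overlaps Gm13070 and Slc25a33 overlaps Gm13068, each on the other strand.

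Resident macrophage genes were higher for a subset. Of 20 macrophage and dendritic genes tested, 3 were higher without overlap (Mrc1, Lyve1 and Cd163, background 1.61%), 6 were higher at an unadjusted p below 0.05 (background 5.17%) and 0 lower, and the median was 0.24. Mrc1, the mannose receptor, had 12.5, 14.7, 11, 9.18 and 10.5 CPM in RW and 23.4, 30.1, 32.9, 23.8 and 16.1 in aJ1aJ2 (log2 fold change 1.12, SE 0.20, adjusted p = 0.082). Lyve1, a hyaluronan receptor of perivascular macrophages and lymphatic vessels, had 8.53, 4.82, 4.53, 3.53 and 6.07 CPM in RW and 10.5, 25, 15.2, 13.9 and 9.44 in aJ1aJ2 (1.42, SE 0.30, adjusted p = 0.132). Cd163, the haemoglobin scavenger receptor, was at 1.24 (SE 0.30, adjusted p = 0.166). The pan-macrophage genes Cd68, Adgre1 and Csf1r were at −0.22, 0.21 and 0.23. Ms4a6d, a membrane protein of macrophages outside this list, had 1.23, 1.01, 1.04, 0.706 and 1.31 CPM in RW and 2.22, 2.86, 3.53, 2.08 and 2.46 in aJ1aJ2 (1.30, SE 0.22, adjusted p = 0.0815). Cd68, Adgre1 and Csf1r were picked after their values were seen, as general markers.

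Fibroblast genes went both ways. Galnt15, a glycosyltransferase, had 37.1, 15.5, 21.5, 20.4 and 19.6 CPM in RW and 58.4, 175, 88.6, 55.7 and 41.5 in aJ1aJ2 (log2 fold change 1.87, SE 0.39, adjusted p = 0.128). Inmt, a methyltransferase, was at 1.03 (SE 0.26, adjusted p = 0.17), also without overlap, which made 2 of 19 fibroblast genes (background 1.61%). Pdgfra and Dcn, a receptor and a proteoglycan of fibroblasts, were at 0.61 (adjusted p = 0.204) and 0.71 (adjusted p = 0.243), with overlap. Col3a1, a fibrillar collagen, was on the other side at −0.77 (SE 0.20, adjusted p = 0.186), with a mean of 125 ± 29.9 CPM in RW and 73.5 ± 16.7 in aJ1aJ2. Pdgfra, Dcn and Col3a1 were named after their values were seen. Of the collagens, 39 were tested, with a median of −0.06. Col18a1, the parent of endostatin, was the 1 of 39 lower without overlap, near the background of 2.02% (−0.63, SE 0.21, adjusted p = 0.292). Ltbp2 and Bmp4, of the TGF-beta and BMP pathways, were higher without overlap (0.79, SE 0.14, adjusted p = 0.082, and 0.58, SE 0.14, adjusted p = 0.166, background 1.61%). Tgfb1 was lower without overlap (−0.42, SE 0.12, adjusted p = 0.204, background 2.02%).

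Sgpl1 (ENSMUSG00000020097), the lyase that breaks down sphingosine-1-phosphate, was the most abundant of the 12 lower genes by CPM. It had 399, 613, 505, 708 and 577 CPM in RW and 287, 191, 231, 204 and 210 in aJ1aJ2, a log2 fold change of −1.32 (SE 0.19, adjusted p = 0.07). Enpep, an aminopeptidase of angiotensin found on pericytes and epithelia, had 22.4, 22.7, 19.9, 20.9 and 25.6 CPM in RW and 14.8, 11.5, 13.6, 14.1 and 13.8 in aJ1aJ2 (−0.72, SE 0.11, adjusted p = 0.07). In both the groups were apart, and the RW libraries spread widely for Sgpl1 and narrowly for Enpep. Emid1, an extracellular matrix protein, was at −1.23 (SE 0.20) with all aJ1aJ2 libraries between 1.73 and 2.01 CPM. Plekhs1 was at −1.35 (SE 0.21), and Mgat5b, a glycosyltransferase, at −2.19 (SE 0.33) from 1.32 ± 0.301 CPM in RW, each with adjusted p = 0.07. P4ha3, a prolyl hydroxylase of collagen, was at −1.48 (SE 0.31, adjusted p = 0.128).

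Genes of cilia were lower for a few members. Tekt1, a protein of the ciliary axoneme, had 14.6, 20.4, 13.1, 11.9 and 19.3 CPM in RW and 9.33, 4.6, 4.18, 3.5 and 4.97 in aJ1aJ2 (log2 fold change −1.58, SE 0.27, adjusted p = 0.0815). Dcdc2a, which binds ciliary microtubules, had 8.81, 10.9, 6.74, 7.2 and 6.57 CPM in RW and 4.77, 2.33, 2.34, 2.95 and 2.46 in aJ1aJ2 (−1.43, SE 0.24, adjusted p = 0.0705). In both, replicate 1, which had almost no parathyroid RNA, was the highest aJ1aJ2 library, and the part of tissue makeup was not tested. Foxj1, the switch for motile cilia, averaged 2.07 ± 0.239 CPM in RW and 0.959 ± 0.409 in aJ1aJ2 (−1.09, SE 0.30, adjusted p = 0.204). Of 17 ciliary genes 15 were below 0, with a median of −0.20, and 2 (Tekt1 and Foxj1) were lower without overlap (background 2.02%). Scgb1a1, which marks airway secretory cells, had 0 to 16 counts in RW and 0 or 1 in aJ1aJ2.

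Thymus and T cell genes were lower in aJ1aJ2, and the thymus markers given above moved with them. Tbata (ENSMUSG00000020096), expressed in thymic epithelium, brain and testis, had 21.6, 44.1, 16.3, 2.73 and 15.2 CPM in RW and 0.271, 0.333, 0.272, 0.381 and 0.546 in aJ1aJ2 (log2 fold change −5.76, SE 0.69, edgeR adjusted p = 0.0655). Prss16, a serine protease of thymic epithelium, had 41.6, 117, 37.8, 0.565 and 19.9 CPM in RW and 0.271, 0.266, 0.272, 0.451 and 0.109 in aJ1aJ2 (−7.21, SE 1.16, adjusted p = 0.07). RW replicate 4, which had 0 counts of Psmb11, was the lowest RW library in both and, for Prss16, lay close to aJ1aJ2 replicate 4. Foxn1, the master factor of thymic epithelium that skin appendages also express, was at −1.49 (SE 0.29, adjusted p = 0.115), and RW replicate 4 was not apart, at 3.86 CPM in a RW range of 3.82 to 7.66. Ctsw, a protease of cytotoxic lymphocytes, had 2.01, 2.46, 2.07, 0.8 and 1.26 CPM in RW and 0.542, 0.2, 0.326, 0.347 and 0.546 in aJ1aJ2 (−2.11, SE 0.36, adjusted p = 0.0815), and overlaps Fibp on the other strand. Tbata, Prss16 and Ctsw passed the count filter only through RW, so that their direction was fixed in advance.

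Of the 15 genes of the T and NK cell list, 7 had enough counts to test, and all 7 were lower, with a median of −3.65. An unadjusted p below 0.05 was seen for 7 (background 6.44%), and 2 were without overlap (Cd3e and Lck, background 2.02%). Genes such as Cd3e, with 4 to 10 counts per aJ1aJ2 library, passed the count filter only through RW, which fixed their direction in advance. With RW replicates 1, 2 and 3 left out the median was −0.66, over 8 tested genes. Cd3e, which encodes a chain of the T cell receptor complex and overlaps Gm48719 on the other strand, had 7.2, 16.6, 3.68, 0.659 and 1.18 CPM in RW and 0.218 to 0.347 in aJ1aJ2 (log2 fold change −4.26, SE 0.86, adjusted p = 0.122). Its value was −1.60 without those 3 libraries. Ccl25, a chemokine that draws thymocytes and overlaps Elavl1 on the other strand, was at −3.72 and Cd4 at −4.52, both named after their values were seen. Of 30 cell cycle genes 24 were tested, and 7 were lower without overlap (Cenpf, Top2a, Cdk1, Cenpe, Ccna2, Kif11 and Mcm3, background 2.02%). At an unadjusted p below 0.05, 12 were lower (background 6.44%). Cenpf and Cdk1, with 3 to 11 counts per aJ1aJ2 library, also passed the count filter only through RW, as did Cenpe, with 3 to 21. Top2a, which untangles DNA in dividing cells and overlaps Gm23451 on the same strand, had 5.43, 17.3, 3.96, 2.12 and 2.15 CPM in RW and 0.705, 0.733, 0.598, 1.25 and 0.546 in aJ1aJ2 (−2.97, SE 0.61, adjusted p = 0.128). It was at −1.45 without RW replicates 1, 2 and 3. The cell cycle median was −0.43, and −0.24 without them, over 25 tested genes. RW replicate 2, with the most Rag1 counts, was the highest library for Top2a, Cdk1, Mki67, Kif11 and Mcm3, whereas RW replicate 1, with 1248 Rag1 counts, was the lowest RW library for Cdk1 and Cenpe. Fscn1, an actin-bundling protein of mature dendritic cells and endothelium, had 11.3, 13.5, 15.3, 13.3 and 16.9 CPM in RW and 8.41, 8.19, 8.26, 8.11 and 9.01 in aJ1aJ2 (−0.74, SE 0.12, adjusted p = 0.07), and was at −0.85 without those 3 libraries. The part of thymus RNA in these differences was not tested.

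Interferon-stimulated genes, the antiviral genes that type I and III interferons induce, were mostly below RW at 7 days. Of 31 tested, 28 had a log2 fold change below 0, 13 an unadjusted p below 0.05 and a lower value (background 6.44%), and 0 separated the groups, with a median of −0.41. At 15 hours after the same dose, in other mice with their own RW controls, the median of the same genes was 1.53. The change of the aJ1aJ2 effect between the times was tested over 20 libraries, and 15 of the 31 were called (edgeR, adjusted p below 0.05), among 58 of 18487 genes called in all (0.314%). The 58 became 6 without RW replicate 2 at 7 days and 146 without RW replicate 1 at 7 days. The count of 15 was 2 without RW replicate 2 at 7 days, 3 without RW replicate 5 or aJ1aJ2 replicate 4 at 7 days or RW replicate 2 at 15 hours, and 26 without aJ1aJ2 replicate 4 at 15 hours. It was 4 without aJ1aJ2 replicate 2 at 7 days or replicate 5 at 15 hours, and 9 without aJ1aJ2 replicate 3 at 7 days.

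Isg15, a ubiquitin-like protein, had 4.41, 1.76, 3.93, 2.35 and 3.23 CPM in RW and 13.4, 22.6, 19.9, 8.27 and 30.7 in aJ1aJ2 at 15 hours. At 7 days it had 3, 3.95, 1.93, 1.98 and 5.48 CPM in RW and 2.22, 0.866, 1.96, 1.18 and 2.57 in aJ1aJ2 (log2 fold change −0.89, SE 0.37, adjusted p = 0.392). The groups were apart at 15 hours and overlapped at 7 days, and the difference of effects was −3.49 (SE 0.55, adjusted p = 0.0139). Oasl2, an oligoadenylate synthetase family member, was at −0.72 at 7 days (SE 0.21, adjusted p = 0.226) and at 2.21 at 15 hours (adjusted p = 0.00204), with a difference of −2.93 (adjusted p = 0.0117). Irf7, which amplifies interferon transcription, was at −0.20 and 2.59 at the 2 times (difference −2.80, adjusted p = 0.0231), and overlaps Phrf1 on the other strand. Ifit1 was at −0.59 and 2.55 (difference −3.15, adjusted p = 0.0231). Against 5 days, 0 of the 31 genes were called (edgeR; DESeq2 called 1), with a median effect of −0.01 at 5 days. Without 2 libraries at 5 days that held little thyroid RNA, described with the other times, 0 were called and that median was −0.14. The interferon genes singled out here were named after their values were seen.

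To show the element these genes share, 2 windows of the same length are printed with the interferon-stimulated response element (GAAA, any 2 bases, GAAA), on either strand, in capitals. Windows were matched for 23 of the 31 genes, and 16 of the 23 held it. Of their 25 windows 64% held it, against 3.44% of all windows.
Isg15 (chr4:156200769-156201068, minus strand): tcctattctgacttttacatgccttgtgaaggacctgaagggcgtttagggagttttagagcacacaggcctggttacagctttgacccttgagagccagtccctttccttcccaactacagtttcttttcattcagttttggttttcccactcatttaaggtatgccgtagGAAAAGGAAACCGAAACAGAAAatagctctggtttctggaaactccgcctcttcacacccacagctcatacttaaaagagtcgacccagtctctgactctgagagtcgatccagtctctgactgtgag
Ifit1 (chr19:34640639-34640938, plus strand): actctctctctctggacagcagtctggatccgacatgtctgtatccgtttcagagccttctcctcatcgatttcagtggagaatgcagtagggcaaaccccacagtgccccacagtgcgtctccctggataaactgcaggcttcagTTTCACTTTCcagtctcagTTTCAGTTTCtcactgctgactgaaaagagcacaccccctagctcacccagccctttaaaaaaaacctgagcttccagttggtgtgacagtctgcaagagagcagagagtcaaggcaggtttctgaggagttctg
In Isg15 the matches overlap into 1 run, and in Ifit1 both lie on the opposite strand.

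**Figure D5:**
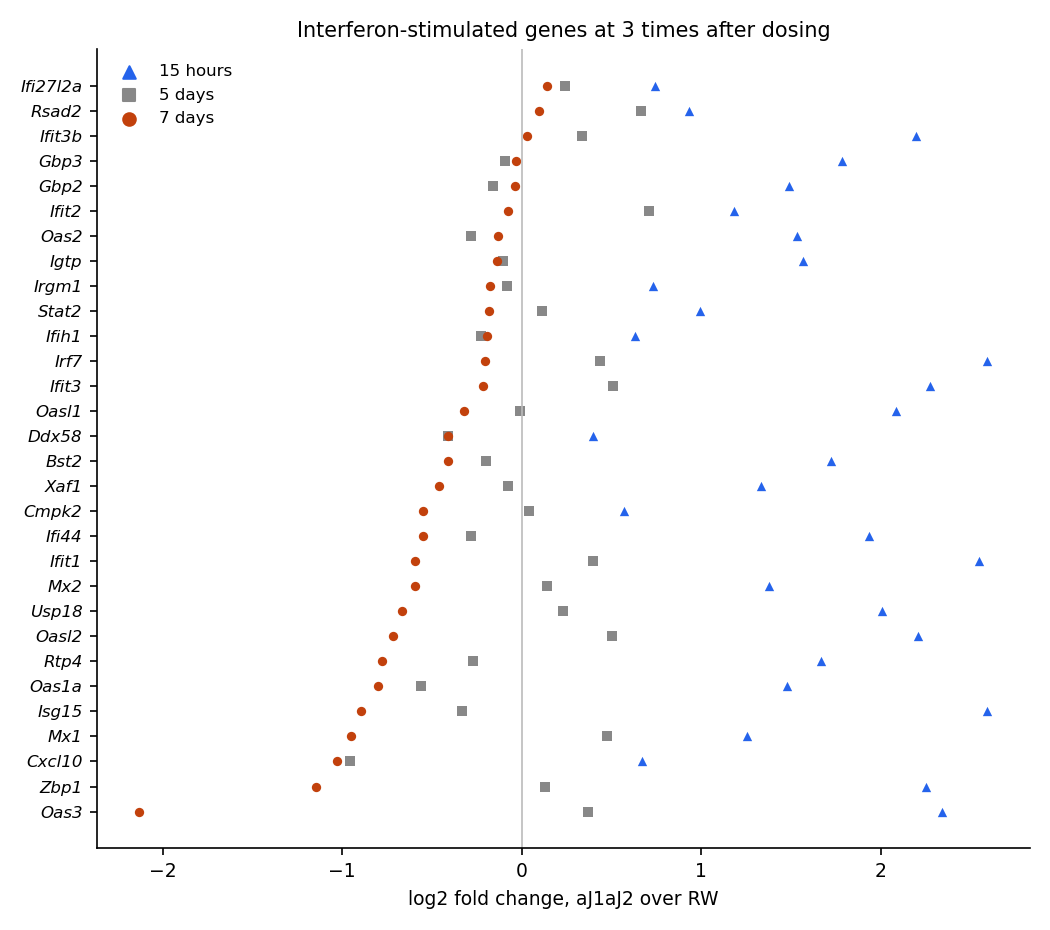
Log2 fold change of aJ1aJ2 over RW for 30 of the 31 interferon-stimulated genes at 15 hours (blue triangles), 5 days (grey squares) and 7 days (orange circles), 1 gene per row, ordered by the 7-day value. The 7-day circles lie below 0 for 27 of the genes plotted, and the medians of all 31 are 1.53 at 15 hours and −0.41 at 7 days.

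Genes of antigen presentation were lower for 16 of 16 tested, with a median of −0.38, but 0 separated the groups and 4 had an unadjusted p below 0.05 (background 6.44%). B cell genes were below 0 for the 6 tested of 11 in the list, with a median of −0.64. The share of counts of the antigen presentation list was 0.18 to 0.385% in RW and 0.0917 to 0.202% in aJ1aJ2.

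Thyroid hormone production genes had a median of −0.26 over 17 tested genes, with 14 below 0. Tshr, the receptor for thyrotropin, the pituitary hormone that drives the gland, was the 1 without overlap, on the lower side (background 2.02%). It had 71, 118, 62.1, 74.3 and 73.2 CPM in RW and 61.3, 20.5, 48.8, 39.8 and 44.7 in aJ1aJ2 (log2 fold change −0.89, SE 0.27, adjusted p = 0.233). The groups came close at RW replicate 3 and aJ1aJ2 replicate 1. Slc5a5, the iodide importer, had 231, 460, 379, 359 and 273 CPM in RW and 53.9 to 277, with a low of 53.9 in replicate 2, in aJ1aJ2 (−0.76, SE 0.39, adjusted p = 0.469). Hhex, a transcription factor of the follicular cell, was at −0.75 (SE 0.27, adjusted p = 0.331) and Dio1, a deiodinase, at −0.66 (SE 0.33, adjusted p = 0.469). Tg was at −0.09 (SE 0.52, adjusted p = 0.949). The factors Pax8, Nkx2-1 and Foxe1 were at −0.09, −0.09 and −0.36. Iyd, which recovers iodide, was at −0.50, and the pendrin relative Slc26a7 at −0.35. Duox2 and its maturation factor Duoxa2, which make the hydrogen peroxide used in hormone synthesis, were at −0.15 and −0.37, and Duox1 and Duoxa1 at 0.24 and −0.26. Duoxa1 and Duoxa2 overlap each other on opposite strands. Slc16a10, a hormone transporter, was at 0.53 (adjusted p = 0.473). aJ1aJ2 replicate 2 was the lowest aJ1aJ2 library for each gene named here except Slc16a10, and without it the median was −0.10.

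Mitochondrial and fat genes were above RW on average, with 1 library carrying most of the difference. The median log2 fold change was 0.67 for 17 citric acid cycle genes, 0.59 for 19 fatty acid oxidation genes, 0.36 for 37 nuclear complex I genes, 0.63 for 13 mitochondrially encoded genes and 1.05 for 11 brown fat genes. Without aJ1aJ2 replicate 2, the library with 11.6% muscle counts, these were 0.19, 0.02, 0.05, 0.07 and 0.28. Ucp1, the uncoupling protein of brown fat, had 230, 205, 312, 78.5 and 326 CPM in RW and 383, 1860, 422, 284 and 232 in aJ1aJ2. Replicate 2 stood far above the other 4 aJ1aJ2 libraries, whose range overlapped RW. Gpx3, a secreted peroxidase, had 257, 221, 295, 200 and 315 CPM in RW and 347, 764, 337, 323 and 347 in aJ1aJ2, without overlap (0.72, SE 0.26, adjusted p = 0.343). Acadvl, Gpd1 and Kcnk3 of the fat and oxidation lists were also higher without overlap (background 1.61%), at 0.89, 1.48 and 1.07 (adjusted p = 0.416, 0.254 and 0.249). Without aJ1aJ2 replicate 2, 0 of the 19 fatty acid oxidation genes, Acadvl among them, were without overlap. Acadvl overlaps Dvl2, Gpd1 Gm16537 and Kcnk3 Gm9899, all on the other strand. Ucp1 was named after its values were seen.

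Some stress and metabolic genes separated the groups one by one. Herpud1, induced by stress in the endoplasmic reticulum, had 131, 138, 156, 110 and 134 CPM in RW and 159, 170, 204, 217 and 228 in aJ1aJ2 (log2 fold change 0.55, SE 0.14, adjusted p = 0.186), while the list of 23 chaperone genes had a median of −0.14. Phgdh and Psat1, consecutive enzymes of serine synthesis, were lower without overlap (−1.08, SE 0.28, and −0.62, SE 0.17, adjusted p = 0.186 and 0.206). Phgdh, with 7 to 19 counts per aJ1aJ2 library, passed the count filter only through RW. Egr3, an immediate early gene, was lower without overlap (−0.78, SE 0.20, adjusted p = 0.185). Over all genes tested, 1.61% were higher and 2.02% lower without overlap.

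The same treatment was sampled at 15 hours and at 5 days, with separate RW controls. At 5 days, 2 libraries held little thyroid RNA: Tg was at 7330 CPM in RW replicate 3 and 23300 in aJ1aJ2 replicate 3, against 216000 to 454000 in the others. They were the highest in the muscle gene Acta1, with 45800 and 18500 CPM. Of the 12 higher genes, 4 were above RW at 15 hours (48.1% of all genes) and 11 at 5 days (44.1%). Of the 12 lower genes, 11 were below RW at 15 hours (51.9% of all genes) and 6 at 5 days (55.7%). Without these 2 libraries the counts at 5 days were 11 (51.6% of all genes above 0) and 5 (48.4% below 0). The change of effect from 15 hours to 7 days was called for Fmo2 (difference 1.89, adjusted p = 0.0231), Ciart (2.02, adjusted p = 0.0231), Spsb1 (1.33, adjusted p = 0.0404), Mrc1 (1.32, adjusted p = 0.0404) and Adam11 (1.04, adjusted p = 0.0463), and for Klf9 (1.23, adjusted p = 0.0404). Fmo2 had 26.4 to 74.4 CPM in RW and 24.4 to 34.5 in aJ1aJ2 at 15 hours, so its groups overlapped there. In these fits edgeR called 1.24% of all genes at 15 hours and 1.12% at 5 days, or 4.68% at 5 days without the 2 libraries. Rgs5 was below RW at all 3 times, at −1.12 at 15 hours (adjusted p = 0.00308), −0.60 at 5 days (adjusted p = 0.241) and −1.53 at 7 days, and neither difference between times was called (adjusted p = 0.54 and 0.28). Without the 2 libraries Rgs5 was at −0.49 at 5 days (adjusted p = 0.154), with no overlap, and its difference from 5 to 7 days was called (−1.04, adjusted p = 0.0456). Notch3 was likewise at −0.86 (adjusted p = 0.0161), −0.52 (0.102) and −0.63. The Notch readouts as a list had a median of 0.0004 at 15 hours and −0.38 at 5 days. Hey1 overlapped at 15 hours, with 7.87 to 10.8 CPM in RW and 8.44 to 10.9 in aJ1aJ2. Without the 2 libraries, edgeR called Hey1 (−0.68, adjusted p = 0.0308) and Heyl (−0.84, 0.0395) lower at 5 days and Nrarp higher (1.64, 0.027). Nrarp rested on few counts there: over all libraries it had 0.0396 to 0.654 CPM in RW and 0.168 to 0.449 in aJ1aJ2, with overlap. Its highest RW value was in replicate 3, which was left out.

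From 5 to 7 days, 152 of 18261 genes were called (0.832%), and leaving out single libraries gave 39 (RW replicate 2 at 5 days) to 266 (RW replicate 3 at 5 days). Without the 2 libraries low in Tg it was 416 (2.3%). Among the genes named by the rule, these were Ifi207 (difference 1.10), Herpud1 (1.45), Fscn1 (−1.61), Tbata (−8.80), Prss16 (−11.35), Ctsw (−3.58), Cd3e (−6.56) and Top2a (−3.97). All 8 were also called without the 2 libraries, as were Rgs5, Sgpl1 and Plekhs1 among the 24 genes described first. At 5 days it was aJ1aJ2 libraries that held thymus genes. Prss16 had 0.0935 to 1.03 CPM in RW at 5 days and 18.4, 0.382, 3.36, 0.216 and 23.8 in aJ1aJ2. Tbata was at 0 to 1.18 CPM in RW and at 10.3, 1.12, 2.69, 0.702 and 14.5 in aJ1aJ2. The 2 libraries highest in Prss16, aJ1aJ2 replicates 1 and 5, were also highest in Tbata. Fscn1 differed without overlap at both times, in opposite directions: 5.9 to 8.23 CPM in RW and 10.4 to 15.4 in aJ1aJ2 at 5 days, against 11.3 to 16.9 and 8.11 to 9.01 at 7 days.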

How the data were processed

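RNA sequencing libraries of mouse thyroid were compared at 7 days after antibody, 5 RW against 5 aJ1aJ2, with groups and replicate numbers from the library titles. The authors deposited a table of raw counts per gene and a table of FPKM values (fragments scaled by gene length and library size), both with a column for each library, and 0 columns were left without a library. The submitters' processing notes name GSNAP and limma without versions. No label or header names the genome build, the gene annotation or the strand setting, so overlapping genes were looked up in a mouse annotation and are uncertain. Symbols were matched for 52403 of 52636 gene identifiers, and 233 stayed without one.

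Counts were tested with edgeR 4.0.16 in R 4.3.3: filterByExpr with a count minimum of 10 and a total of 15, TMM scaling, the robust quasi-likelihood test and Benjamini-Hochberg adjustment with a threshold of 0.05. CPM values are counts scaled by the TMM library size. The standard error is the size of the log2 fold change over the square root of F. DESeq2 1.42.0 on the filtered genes and limma 3.58.1 on log2(FPKM + 0.1) were alternatives, as were RLE scaling, no filter, a pseudocount of 1, library quality weights, muscle and hepatocyte covariates, a replicate block, all 50 libraries in 1 fit and leaving out each library. Change of effect from 15 hours or 5 days was tested as an interaction over 20 libraries. Composition shares were compared by a two-sided exact permutation test of the 252 splits. Scripts were tested on simulated data. No pair of libraries of a group agreed within sampling noise, with at least 17.1 of chi-square per degree of freedom over 20 pairs.

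The genes named were the 12 higher and 12 lower of smallest p among named genes without overlap and with a mean of at least 1 CPM in a group, every tested Notch readout, receptor, ligand and thyroid function gene, and up to 5 members without overlap of each other list (49 lists in all). A few genes and the results that need them are not reported here. Genes beyond this rule were named after their values were seen. The gene lists and the comparison were chosen with earlier results of these data known.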

Additional observations from a re-analysis of the deposited data

Results flagged for a closer look

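In 47 of 280 groups of 5 libraries examined, over the named genes and the composition shares, the highest or lowest library stood farther from its neighbour than 0.710 of the group's range. For normally distributed values chance gives about 1 in 20 groups. The values examined were CPM and shares without a log, and many genes were named for their values in these libraries. Genes that share a library are not independent either, so the 1 in 20 is not the chance rate here. aJ1aJ2 replicate 2 was far above the rest of its group for Rgs5 (114 CPM), Slc16a10 (59.2 CPM), Gpx3 (764 CPM), Acadvl (532 CPM), Klf9 (328 CPM), Fkbp5 (211 CPM), Cd163 (41 CPM), Gpd1 (2500 CPM), Kcnk3 (180 CPM), Zbtb16 (212 CPM), Ccl25 (2.66 CPM), Cs (1030 CPM), Ucp1 (1860 CPM) and Acta1 (21600 CPM). The same was seen in aJ1aJ2 replicate 2 for the skeletal muscle share (11.6%), the adipocyte share (1.12%), the brown fat share (0.286%) and the mitochondrially encoded share (7%), above the rest. aJ1aJ2 replicate 2 was far below the rest of its group for Plekhs1 (1.2 CPM), Slc26a7 (221 CPM), Lck (2.4 CPM) and Apln (1.53 CPM). RW replicate 2 was far above the rest of its group for Tshr (118 CPM), Lck (79.7 CPM), Foxn1 (7.66 CPM), Top2a (17.3 CPM), Cdk1 (3.08 CPM), Mki67 (20.1 CPM), Kif11 (6.6 CPM) and Mcm3 (12.6 CPM). The same was seen in RW replicate 2 for the thymus share (0.0417%), above the rest. RW replicate 1 was far above the rest of its group for Fkbp5 (71.1 CPM), Galnt15 (37.1 CPM), Zbtb16 (88.6 CPM) and Alb (1540 CPM). The same was seen in RW replicate 1 for the hepatocyte share (0.349%), above the rest. RW replicate 1 was far below the rest of its group for Nrarp (2.05 CPM). RW replicate 5 was far above the rest of its group for Duoxa1 (6.66 CPM), Ndufa4l2 (10.9 CPM) and Acta2 (103 CPM). RW replicate 5 was far below the rest of its group for Notch2 (77.5 CPM) and Clock (67.5 CPM). aJ1aJ2 replicate 1 was far above the rest of its group for Dcdc2a (4.77 CPM) and Tekt1 (9.33 CPM). aJ1aJ2 replicate 3 was far above the rest of its group for Acta2 (220 CPM) and Myh11 (156 CPM). aJ1aJ2 replicate 4 was far above the rest of its group for Top2a (1.25 CPM).

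The aJ1aJ2 effect differed between times for 21 named genes, by edgeR's interaction test with an adjusted p below 0.05. From 15 hours to 7 days the log2 difference was 1.89 for Fmo2 (adjusted p = 0.0231), 2.02 for Ciart (adjusted p = 0.0231), 1.33 for Spsb1 (adjusted p = 0.0404), 1.04 for Adam11 (adjusted p = 0.0463), 1.32 for Mrc1 (adjusted p = 0.0404), 1.23 for Klf9 (adjusted p = 0.0404), −3.49 for Isg15 (adjusted p = 0.0139), −2.80 for Irf7 (adjusted p = 0.0231), −3.15 for Ifit1 (adjusted p = 0.0231), −2.93 for Oasl2 (adjusted p = 0.0117), −4.48 for Oas3 (adjusted p = 0.0177) and −2.68 for Usp18 (adjusted p = 0.0231). From 5 to 7 days it was 1.10 for Ifi207 (adjusted p = 0.0389), −8.80 for Tbata (adjusted p = 0.0123), −1.61 for Fscn1 (adjusted p = 0.0011), −11.35 for Prss16 (adjusted p = 0.0142), −3.58 for Ctsw (adjusted p = 0.0234), 1.45 for Herpud1 (adjusted p = 0.0432), −6.56 for Cd3e (adjusted p = 0.0234), −3.97 for Top2a (adjusted p = 0.0361) and −4.90 for Ccl25 (adjusted p = 0.0339).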

How the results depend on the processing

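The count of genes called at 7 days, 0 in edgeR, was also 0 with RLE scaling, with FPKM values and either pseudocount, with a replicate block (smallest adjusted p 0.348) and without the 3 RW libraries with thymus genes. It was 20 with no count filter, 417 with DESeq2, 595 with library quality weights, 6 with a muscle covariate, 1 with a hepatocyte covariate, 6 with all 50 libraries in 1 fit and 14 without the 2 aJ1aJ2 libraries that stand apart. The quality weights were lowest for aJ1aJ2 replicate 2 (0.123) and RW replicate 5 (0.17). Leaving out each library gave 0 to 20 calls: 20 without RW replicate 4, 1 without RW replicate 5, 9 without aJ1aJ2 replicate 1 and 12 without aJ1aJ2 replicate 2. Genes without overlap numbered 707 to 1340 with a library left out, 3252 without the 3 RW libraries and 1460 without the 2 aJ1aJ2 libraries, and fewer libraries separate more easily. All 3 choices of several libraries to leave out were made after seeing the data.

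For the change of effect from 15 hours, 58 genes became 38 with no filter, 378 with DESeq2, 0 with a replicate block, 26 with all 50 libraries, and 6 to 146 with a library left out. The 15 interferon genes became 27 with DESeq2, 0 with the block and 2 to 26 with a library left out. For the change from 5 days, 152 became 92 with no filter, 554 with DESeq2, 12 with the block, 98 with all 50 libraries, 416 without the 2 libraries low in Tg at 5 days and 39 to 266 with a library left out, and DESeq2 called 1 interferon gene. Replicate numbers do not pair the samples: the correlation of deviations was −0.442, −0.493, −0.557, 0.278 and −0.0375 for numbers 1 to 5, and 1 of 5 libraries matched its own number best. Without aJ1aJ2 replicate 5 the parathyroid and C cell shares passed the threshold (adjusted exact permutation p = 0.0357 for both), and their differences ran from −1.16 to −0.639 and from −0.682 to −0.389 percentage points over the libraries left out. The C cell genes were not lower as a list: the median log2 fold change was 0.11, with 6 above 0 and 5 below. Calca, a defining C cell marker, was at 0.33. The lowest C cell share (0.406%) was in aJ1aJ2 replicate 1, which had 63610 Calca counts and 45 Pth counts. No called value changed sign. Values near 0 did with a library left out, among them the Tg share (−4.94 to 1.77), the hepatocyte share (−0.0572 to 0.00868), Tg (−0.23 to 0.12), Pax8 (−0.28 to 0.09), Nkx2-1 (−0.19 to 0.10), Duox2 (−0.28 to 0.08), Notch2 (−0.05 to 0.19), Jag2 (−0.06 to 0.01), Dll3 (−0.34 to 0.05), Pdgfrb (−0.10 to 0.01), Myh11 (−0.01 to 0.44) and the medians of the endoplasmic reticulum chaperones (−0.24 to 0.04) and the mural list (−0.01 to 0.14). The cause of these shifts was not tested. At these depths, genes near 1 CPM rest on few counts.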
